A study of Mus musculus and synthetic RNA with 74 samples.

Results

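The 36 genes described here encode aminoacyl-tRNA synthetases, and they were chosen by symbol from the gene tables of early *Mettl16* mutant embryos, which list 20330 genes at E2.5 and 21199 at E3.5. All 36 had a value at both stages. Of these, 20 encode the enzymes of the cytosol and 16, whose symbols end in 2, those of mitochondria. Each enzyme joins one amino acid to its tRNA, and the charged tRNA then delivers that residue to the ribosome. Cytosolic and mitochondrial translation mostly use separate sets, both encoded in the nucleus, so *Mars* charges the cytosolic methionine tRNAs and *Mars2* the mitochondrial one. In animals several cytosolic enzymes are held together in the multi-synthetase complex by 3 scaffold proteins, and growing cells need both sets to make protein.

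Single embryos came from crosses of *Mettl16* heterozygotes of 1 mouse line, derived from the hybrid B6D2F1/J and bred to C57BL/6JRj, in which a cassette of 3 stop codons sits in exon 3 of *Mettl16*. The E2.5 group (morulae) comprised 5 WT, 14 HET and 12 KO embryos, and the E3.5 group (blastocysts) 18 WT, 9 HET and 12 KO embryos, all from this line, with polyadenylated RNA amplified by Smart-seq2 without strand information. For each stage the tables give 1 mean normalized count per gene, exon or intron over all embryos, 31 at E2.5 and 39 at E3.5, with the genotypes combined. No value per embryo or per genotype was used here, so the levels below carry no SD and KO, HET and WT embryos were not compared. A second experiment used a synthetic pool of 30-nt RNAs with an invariant 9-nt motif (the nonamer, as DNA TACAGAGAA) between randomized flanks. The pool was incubated with recombinant human METTL16, the m6A methyltransferase. It was sequenced before (input) and after immunoprecipitation with an antibody against m6A (m6A-IP), with 2 libraries of each.

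The stage tables were normalized separately, and the summed means were 23557112 at E2.5 and 27145016 at E3.5, of which the synthetase genes made up 0.328% and 0.409%. The proportion of genotypes also differed between the stages, so stage and genotype composition cannot be told apart in any difference between them. Depth per embryo is unknown from these tables. Of the stage markers, the trophectoderm genes *Cdx2*, *Krt8* and *Krt18* had higher means at E3.5 (centered log2 differences, as defined below, of 2.99 to 5.06) and *Tfap2c* a lower one (-2.02). Of the epiblast and pluripotency genes, *Sox2* (3.09) and *Nanog* (2.41) had higher means and *Pou5f1* (-1.86) a lower one, and of the primitive endoderm genes *Sox17* had 0.77, *Gata6* -0.47 and *Gata4* -2.83, while the oocyte genes *Zp3*, *Gdf9* and *Bmp15* had lower means (-5.45 to -3.21). Of the markers of cumulus and granulosa cells and of blood, *Amh*, *Hbb-bs* and *Ptprc* had means of at most 1.34 at either stage, *Fshr* was listed at 0.03 at E3.5 only, and *Ptx3* was not in either table. *Mettl16* itself had a mean of 778 at E2.5 and 669 at E3.5, which combines all 3 genotypes and therefore checks no label.

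To compare genes, each mean was divided by the length of the longest transcript, giving a mean normalized count per kb. On this scale 35 of the 36 synthetase genes at E2.5, and all 36 at E3.5, lay above the median of all genes, which was 14.7 and 21.6. The exception was *Vars2* at E2.5. The median synthetase gene stood at percentile 83.6 of all genes at E2.5 and 87.8 at E3.5, and 13 and 15 of the 36 were among the highest 10% of genes. All genes include many with very low counts. With genes averaging under 10 counts removed from the ranking, the median synthetase gene stood at 73.7 and 80.5. Below the median of this smaller background at E2.5 were *Vars2* (14.9), *Nars2* (30.8), *Pars2* (34.9), *Aars2* (37.6), *Fars2* (41.4), *Iars2* (42.6) and *Ears2* (46.1). At E3.5 they were *Vars2* (33.0), *Aars2* (38.1), *Mars2* (42.2), *Pars2* (42.6) and *Nars2* (44.6).

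The methionine enzymes were examined first. *Mars* (chr10:127296221-127311786, minus strand, mm10) had a mean of 2930 at E2.5 and 4351 at E3.5, or 989 and 1469 per kb. *Mars2* (chr1:55237177-55240058, plus strand), a gene with 1 exon, had means of 324 and 236, or 112 and 82.0 per kb. The level of *Mars* was thus 8.79 times that of *Mars2* at E2.5 and 17.9 times at E3.5. *Mars* held percentiles 91.1 and 92.7, and *Mars2* percentiles 71.6 and 63.7. An exon of *Mars* shares up to 68 bases with *Ddit3*, which lies on the opposite strand, and reads from the 2 genes cannot be separated there without strand. The same holds for 265 bases of *Farsb* with *Sgpp2*, 85 of *Iars2* with *Rab3gap2* and 30 of *Yars* with *C77080*.

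The 8 cytosolic enzymes of the multi-synthetase complex had a median of 1658 per kb at E2.5 and 1602 at E3.5. Among them *Rars*, the arginine enzyme, had the highest level of all synthetase genes at E2.5, with 4037 per kb, and 3331 at E3.5. Divided by the shortest transcript in place of the longest, *Dars* (aspartate) came first at both stages, with 5407 and 4399 per kb. *Qars* (glutamine) had 1780 and 1735, *Dars* 1679 and 1366 by the longest transcript, and *Kars* (lysine), whose gene also supplies the mitochondrial enzyme, 2238 and 2248. *Eprs*, which fuses the glutamate and proline enzymes, had 1637 per kb at E2.5 and 2344 at E3.5. The lowest members of the complex were *Iars* (isoleucine), with 329 and 920, and *Lars* (leucine), with 279 and 541. For *Iars*, 44.6% of the transcript matches a second place, chr1:19331064-19333668, at 95.1% to 98.9% identity, so its count is uncertain. Shorter repeated stretches cover 4.30% of the *Ears2* and 3.24% of the *Wars2* transcript.

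Outside the complex the 12 other cytosolic genes had a median of 913 per kb at E2.5 and 1063 at E3.5, with ranges that overlapped those of the complex. *Gars* (glycine), which also serves both compartments, had 2509 and 3182 per kb. The 2 subunits of the phenylalanine enzyme differed from each other, with 1352 and 681 for the alpha subunit *Farsa* against 2224 and 2502 for the beta subunit *Farsb*. *Yars* (tyrosine) had 2146 per kb at E2.5 and 1049 at E3.5. *Nars* (asparagine) had 1215 and 2860, *Hars* (histidine) 1126 and 1404, *Tars* (threonine) 700 and 1415, *Aars* (alanine) 581 and 1077, *Sars* (serine) 493 and 1020 and *Wars* (tryptophan) 449 and 695. The lowest levels in the cytosolic set were those of *Cars* (cysteine), with 183 and 267 per kb, and *Vars* (valine), with 150 and 412.

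In the mitochondrial set the median was 144 per kb at E2.5 and 253 at E3.5, and the cytosolic medians of 1171 and 1385 were 8.13 and 5.46 times higher. At E2.5, 12 of the 20 cytosolic genes lay above every mitochondrial gene. The highest mitochondrial gene at this stage was *Cars2* (cysteine), with 845 per kb, followed by *Sars2* with 418, *Yars2* with 335, *Wars2* with 323 and *Rars2* with 307. *Tars2* had 224, *Hars2* 222 and *Lars2* 176. Below *Mars2* came *Ears2* with 69.5, *Iars2* with 56.1, *Fars2* with 52.0, *Aars2* with 41.4, *Pars2* with 34.8, *Nars2* with 27.5 and *Vars2* with 10.1. At E3.5 *Lars2* had the highest level of the family by the longest transcript, 3778 per kb, ahead of *Rars2* with 850, *Yars2* with 596 and *Iars2* with 452. The other 12 mitochondrial genes then lay between 48.5 (*Vars2*) and 312 (*Sars2*), with *Hars2* at 298, *Cars2* at 284, *Tars2* at 281, *Wars2* at 226, *Fars2* at 224, *Ears2* at 178, *Nars2* at 93.9, *Pars2* at 84.1 and *Aars2* at 65.0. Without *Lars2*, whose counts are described below, the cytosolic median was 10.4 and 6.12 times the mitochondrial one.

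**Figure D1:**
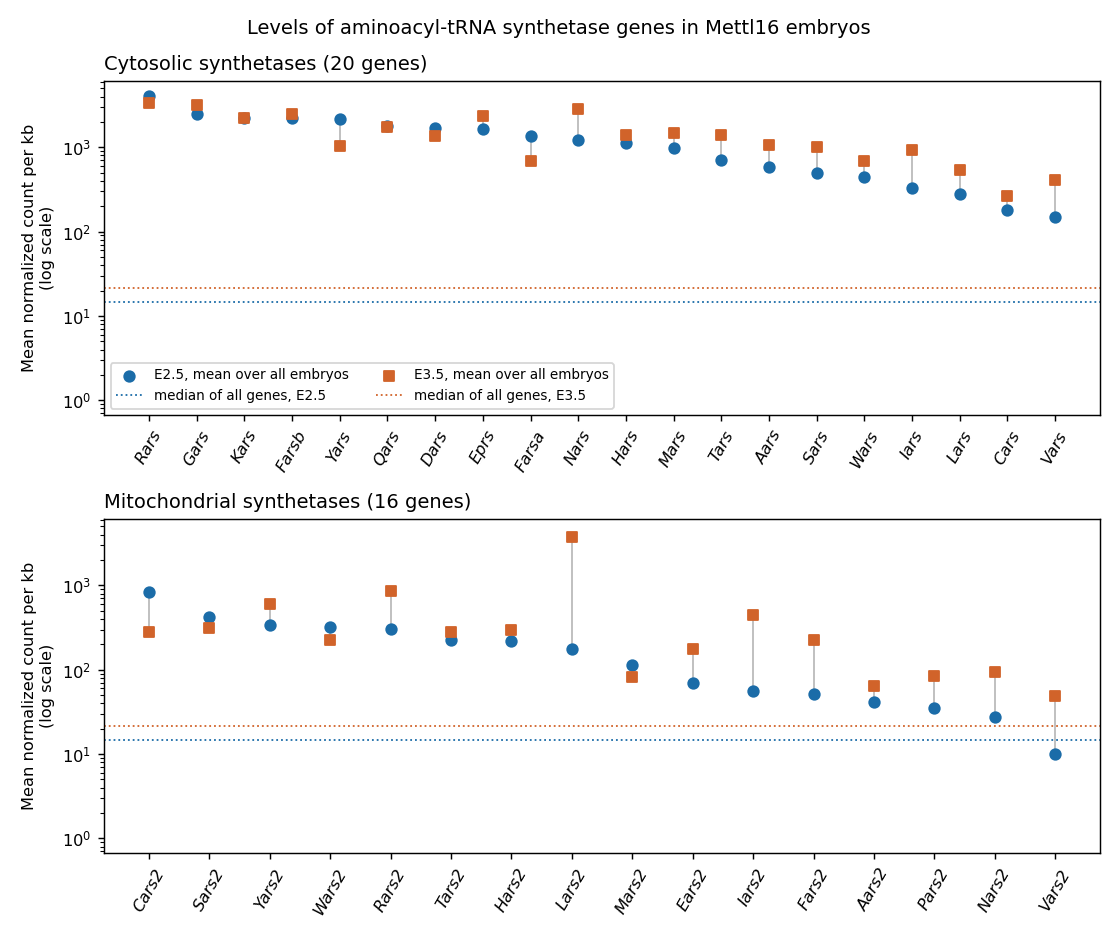
Mean normalized count per kb of the longest transcript (log axis) for the 20 cytosolic (top) and 16 mitochondrial (bottom) synthetase genes, ordered by level at E2.5. Circles are the authors' mean over 31 E2.5 embryos and squares over 39 E3.5 embryos, dotted lines mark the medians of all genes (14.7 and 21.6), and 16 mitochondrial genes at E2.5 and 15 at E3.5, all but *Lars2*, lie below the cytosolic median.

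Set against each other by amino acid, the cytosolic gene had the higher level in 16 of 17 pairs at E2.5 and 15 of 17 at E3.5, where *Eprs* was paired with both *Ears2* and *Pars2*, and *Fars2* with both *Farsa* and *Farsb*. The exceptions were *Cars* with *Cars2* at both stages (ratios of 0.216 and 0.940) and *Lars* with *Lars2* at E3.5 (0.143). With the shortest transcript as the length, *Cars* at 289 per kb and *Cars2* at 284 changed order at E3.5, which gave 16 of 17. From summed exon counts *Lars* was below *Lars2* at E2.5 too, with 719 against 3943 per kb. The widest gaps were those between *Eprs* and *Pars2*, with ratios of 47.1 and 27.9, and between *Nars* and *Nars2*, with 44.2 and 30.5. For serine the enzymes differed little at E2.5, with 493 per kb for *Sars* and 418 for *Sars2*, and more at E3.5, where the ratio was 3.27.

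For the stages, the log2 ratio of the E3.5 to the E2.5 mean was centered by subtracting its median over the 19639 genes in both tables, 0.51. These values set 2 separately normalized tables side by side, were not tested, and carry no error. After centering, 21 synthetase genes were above 0 and 15 below, with a median of 0.09. When the stage totals were used for scaling in place of the median ratio, 25 were above 0. More than 2-fold higher at E3.5 were 5 of the 36 genes, against 27.5% of all genes, and more than 2-fold lower were 4, against 28.1%. Among genes with a mean of at least 10 in both stages these percentages were 23.4% and 22.7%. With stage totals the counts of synthetase genes were 11 and 3, and with a pseudocount of 1 they were 8 and 3. Scaling by stage totals subtracted 0.20 in place of 0.51 from every gene. The shares of all genes under these 2 alternatives were not computed, so their counts have no background here.

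The 3 largest centered log2 ratios belonged to mitochondrial enzymes, *Lars2* with 3.92, then *Iars2*, and *Vars2* with 1.76. *Iars2* had a mean of 199 at E2.5 and 1599 at E3.5, and *Vars2* had 44.5 and 215. The 3 lowest were *Cars2* with -2.08, *Yars* with -1.54 and *Farsa* with -1.50. Their means were 1563 and 525 for *Cars2*, 6169 and 3016 for *Yars*, and 2473 and 1246 for *Farsa*. *Mars* was near the center, with 0.06, or -0.02 from summed exon counts, and *Mars2* was at -0.96. The cytosolic set had a median of 0.02 and ranged more narrowly than the mitochondrial set, which held the extremes at both ends and had a median of 0.55. None of the cytosolic genes was more than 2-fold higher after centering, whereas with stage totals *Iars* (1.28), *Vars* (1.25) and *Nars* (1.03) were.

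**Figure D2:**
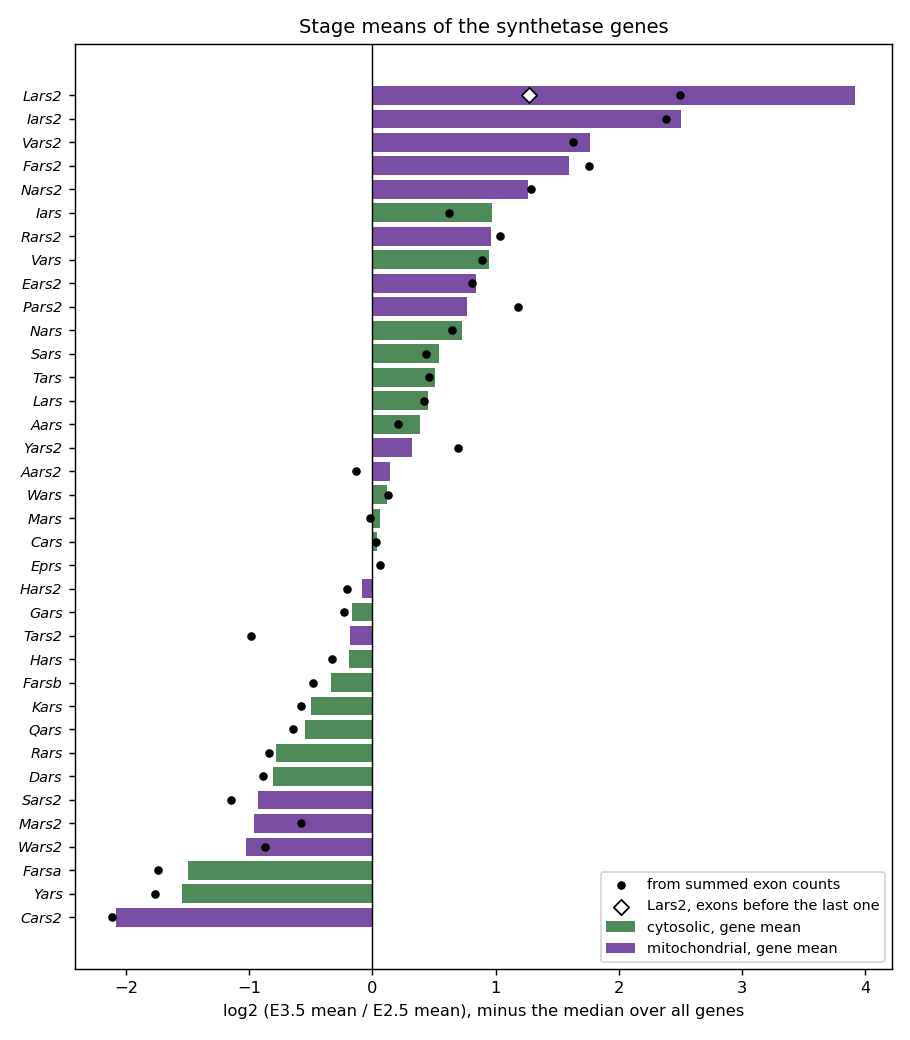
Log2 ratio of the E3.5 to the E2.5 mean for each synthetase gene, minus the median over all genes, with green bars for cytosolic and purple bars for mitochondrial genes. Black dots give the same ratio from summed exon counts, and the diamond gives *Lars2* on that exon scale from the exons before its last one, at 1.27. Its counterpart is the black dot of *Lars2*, which uses all exons. The *Lars2* bar, at 3.92, rests on the separately quantified gene means, so it differs from the diamond in more than exon 21.

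The exon counts of *Lars2* (chr9:123366940-123462664, plus strand, mm10), the mitochondrial leucine enzyme, came almost entirely from 1 exon. Exon 21, the last, at chr9:123461499-123462664, had a mean of 15186 at E2.5 and 86316 at E3.5, while its other 20 exons had means of 3.02 to 17.8 and of 4.64 to 34.3. Exon 21 thus held 99.2% and 99.7% of the exon counts with 30.0% of the length, and at E3.5 it ranked 8 among 221199 exons. Per kb it lay 299 times above the other exons at E2.5 and 701 times at E3.5. By comparison, the last exon of *Lars*, the cytosolic leucine enzyme, held 5.65% and 11.6% of that gene's exon counts. The gene means of *Lars2* behind the levels above were quantified separately and were 682 at E2.5 and 14661 at E3.5. Both are smaller than the exon 21 means, and the part of exon 21 in them was not tested. Of the 1166 bases of *Lars2* exon 21, 180 are coding and 986 are 3′ UTR in the RefSeq annotation. Matches were sought only in the assembled chromosomes and the mitochondrial genome, not in unplaced sequence. Bases 294 to 691 of the exon match 8 other places on 7 chromosomes over at least 80 bases at 95% identity or more, and its longest match to the mitochondrial genome was 19 bases. The part of these matches in the counts was not tested.

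From the 20 exons before the last one, *Lars2* had 43.6 counts per kb at E2.5 and 106 at E3.5. On this scale, in which counts were summed over exons, *Lars* had 719 and 962, so that it was 16.5 and 9.11 times higher than *Lars2*. *Lars2* then ranked 14 and 12 among the 16 mitochondrial genes, and its centered log2 ratio between the stages was 1.27. The ratio of the cytosolic to the mitochondrial median from summed exons was 13.8 at E2.5 and 8.87 at E3.5 with all exons, and 23.6 and 11.9 with *Lars2* taken from these 20 exons.

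**Figure D3:**
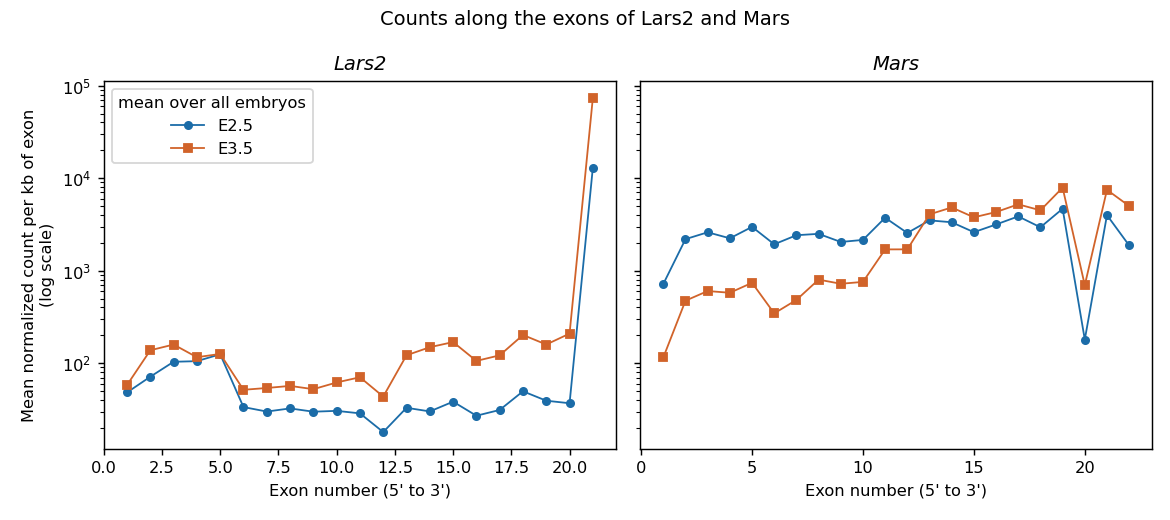
Mean normalized count per kb of exon (log axis) along the exons of *Lars2* (left) and *Mars* (right), with circles for the mean over E2.5 embryos and squares for E3.5. In *Lars2* only exon 21 exceeds 1000 per kb, whereas in *Mars* the counts at E3.5 increase toward the 3′ end and both stages dip at exon 20, which has 24 bases.

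Counts were not spread evenly along the other transcripts. In *Mars*, exon 1 had a mean of 191 at E2.5 and 30.7 at E3.5, and the last exon, number 22, had 412 and 1100. For each gene with at least 6 exons, counts per kb were compared between exons centered in the first 33.3% of the exon bases and those centered in the last 33.3%, which was possible for 31 synthetase genes. The log2 ratio of the 5′ to the 3′ part had a median of -0.09 in these genes at E2.5 and -1.98 at E3.5. Over all genes with at least 6 exons and an exon sum of 100 or more, the medians were 0.79 (5718 genes) and -0.76 (5930 genes). The ratio was lower at E3.5 than at E2.5 in all 31 synthetase genes, against 94.3% of 5220 genes measured at both stages. At E3.5 the largest 3′ weighting after *Lars2* (-9.55) was that of *Aars* (-4.94), *Vars2* (-4.88) and *Aars2* (-4.69), and for *Mars* the ratio was -0.66 at E2.5 and -3.63 at E3.5. *Tars2*, *Nars2*, *Sars* and *Nars* had more counts per kb in the 5′ part at both stages, with log2 ratios of 2.65, 1.92, 1.85 and 0.66 at E3.5. This difference in coverage moves with the stage, and its part in the stage ratios above was not tested.

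**Figure D4:**
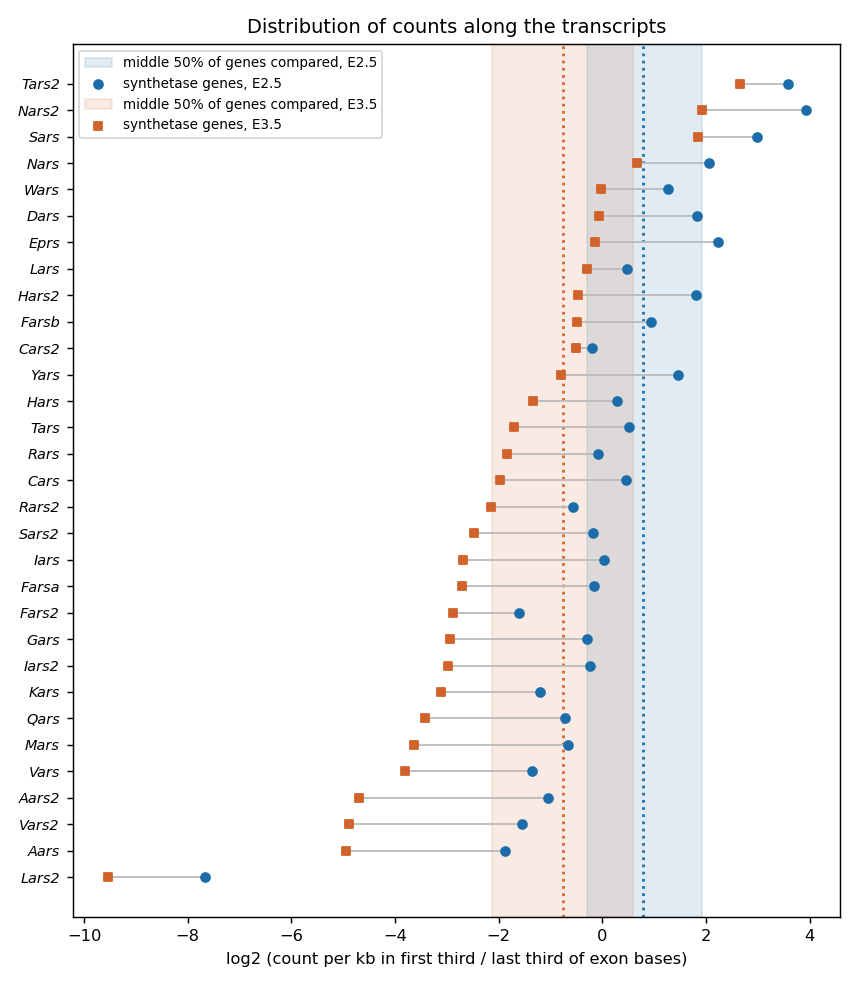
Log2 ratio of counts per kb in the 5′ part to that in the 3′ part of the exon bases for 31 synthetase genes, with circles for E2.5 and squares for E3.5. Shaded bands hold the middle 50% of the genes compared and dotted lines mark their medians (0.79 and -0.76), and every synthetase gene lies further to the left at E3.5.

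Intron counts were low relative to exon counts. In the 35 synthetase genes with introns, the mean intron count per kb had a median of 0.318% of the exon level at E2.5 and 0.801% at E3.5, against 0.732% and 1.49% over the 6623 and 6925 genes with at least 6 exons and an exon sum of 100 or more. At E2.5, 26 of the 35 lay below that median of all genes, and at E3.5, 28 did. The filter was not applied to the synthetase genes. *Pars2* and *Yars2*, with fewer than 6 exons, and *Vars2* at E2.5, with an exon sum of 80.2, would not have passed it. For *Mars* the intron level was 0.0950% at E2.5 and 0.177% at E3.5, and *Mars2* has no intron. Highest were *Pars2*, with 25.1% and 37.4% in its only intron, and *Tars2*, with 10.8% and 14.4%, followed at E2.5 by *Vars2* with 7.46% and at E3.5 by *Ears2* with 6.50%. For *Tars2* the values dropped to 2.07% and 3.69% when introns that share bases with an annotated exon were left out. Lowest were *Lars2*, with 0.00550% and 0.0145%, where exon 21 sets the exon level, and *Rars*, with 0.0320% and 0.0746%, joined at E2.5 by *Dars* with 0.0316% and at E3.5 by *Farsb* with 0.0939%.

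Partners of the synthetases were measured in the same tables. Of the 3 scaffold genes of the complex, *Aimp1* had 1826 counts per kb at E2.5 and 4638 at E3.5, *Aimp2* had 2402 and 2579, and *Eef1e1* had 3797 and 5692, all above the median of the complex enzymes. *Eef1a1*, the elongation factor that carries charged tRNA to the cytosolic ribosome, had 73836 and 134061 per kb, and *Tufm*, its mitochondrial counterpart, had 2379 and 1805. *Tarsl2*, a further threonine enzyme, had 5.81 and 58.0 per kb. Mitochondria make glutaminyl-tRNA through an amidotransferase, and of its subunit genes *Qrsl1* had 198 and 483 per kb, *Gatb* 49.3 and 284, and *Gatc* 112 and 254. *Mtfmt*, which formylates the initiator methionyl-tRNA of mitochondria, had 129 and 345. In the selenocysteine pathway, *Pstk* had 133 per kb at E2.5 and 408 at E3.5, and *Sepsecs* 64.5 and 81.9. The deacylases *Dtd1* and *Aarsd1*, which remove wrongly attached amino acids, had 212 and 213 for *Dtd1* and 1362 and 853 for *Aarsd1*.

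To relate these genes to the substrate preference of METTL16, the nonamer TACAGAGAA was searched on the sense strand of each gene. It occurred 30 times, 19.0 times per Mb of gene, against 20.8 per Mb over 24467 genes. It lay in 17 of the 36 genes (47.2%), against 35.7% of those 24467 genes. An exon held it in 1 synthetase gene (2.78%) and in 3.29% of all genes. *Mars* and *Mars2* had none. The exonic match lies in coding sequence at the start of exon 20 of *Aars2*, the mitochondrial alanine enzyme, where it begins at base 3 of the exon, so that the first 9 bases of its genomic window are intronic. Each match was taken with 11 bases before and 10 after, as in the synthetic RNA, and folded. The adenosine at position 15, the one that can be methylated, was paired in 9 of the 30 windows and unpaired in 21. In none of them did it form a bulge of 1 base. How often windows of other genes form such a bulge was not computed. Selected windows, not a typical sample of the 30, are printed 5′ to 3′ on the sense strand (GRCm38) with the nonamer in capitals. They comprise the exonic match, the 3 windows with an enriched structure, the 3 with the lowest ratio of m6A-IP to input, and a window that recurs in the genome.
Aars2, exon 20, chr17:45519504-45519533, plus strand: gccccacaggcTACAGAGAAatcccaggag
Kars, intron 5, chr8:112002347-112002376, minus strand: acagacagggcTACAGAGAAaccatctcaa
Farsb, intron 15, chr1:78450825-78450854, minus strand: tgcctccaggtTACAGAGAAatggttccca
Lars2, intron 5, chr9:123408462-123408491, plus strand: agccagggctaTACAGAGAAaccctctttc
Gars, intron 12, chr6:55071718-55071747, plus strand: aaggaaatataTACAGAGAAaatatttcct
Wars2, intron 1, chr3:99182030-99182059, plus strand: attctctgctaTACAGAGAAcaacatttga
Lars2, intron 1, chr9:123367419-123367448, plus strand: ggctcacagctTACAGAGAAggtggagttc
Iars, intron 25, chr13:49723295-49723324, plus strand: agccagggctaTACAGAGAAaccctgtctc

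The last of these sequences occurs 16635 times in the genome, among them in introns of *Kars* and *Hars*, and 9 of the 30 windows, in 6 genes, had more than 1 exact copy. The introns that hold the windows had means of 0.155 to 133 counts at E2.5. Of the 30 windows, 29 folded into a structure that the in vitro table lists, 23 different structures in all. The table covers 36835 structures, with a depth of 1154715 reads for m6A-IP in reaction 12 and 18106812 to 22118658 for the others, and a value is the sum over all RNAs that share the structure. It therefore measures the structure and not the synthetase sequence, and the reactions were run in duplicate on the same synthetic pool, so that p-values measure only the spread between these 2 reactions, which may be technical. In limma's moderated test of 2 m6A-IP against 2 input libraries, 3 of the 23 structures were enriched and 9 depleted at an adjusted p of 0.1. Of all structures 12.5% were enriched and 27.2% depleted, 39.8% in either direction, and the median log2 ratio was -0.27 both for the 23 structures and for all. Without the input library of reaction 11 or 12, the median log2 ratio over all structures was -0.26 or -0.27. Without the m6A-IP library of reaction 11 or 12, that median was -0.40 or -0.11. The number of calls depended on the library left out and is given at the end, with the counts for all structures. In each of these fits 1 group held a single library, which was assumed to vary like the 2 of the other group.

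The 3 enriched structures were named after their values were seen. That of the *Kars* window, with a 4-bp stem directly after position 15, had input values of 4288 and 4398 and m6A-IP values of 12910 and 9599 for reactions 11 and 12. Its log2 ratio was 1.36 (standard error 0.21, limma adjusted p = 0.015). The *Farsb* structure had 108 and 113 in input and 221 and 222 in m6A-IP (0.97, standard error 0.16, limma adjusted p = 0.017). The *Lars2* intron 5 structure, with 2 short stems, had 124 and 108 in input and 204 and 173 in m6A-IP (0.68, standard error 0.18, limma adjusted p = 0.045). Position 15 was unpaired in the *Kars* structure and paired in those of *Farsb* and *Lars2* intron 5. In all 3 both m6A-IP values were above both input values. None of the 3 was called when either input library was left out, with limma adjusted p of 0.159 to 0.513 and larger standard errors. Their log2 ratios were then 1.34 and 1.38 for *Kars*, 0.94 and 1.01 for *Farsb*, and 0.78 and 0.58 for *Lars2*.

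Among the depleted structures the lowest was that of the *Gars* window, which encloses the nonamer in the loop of a 9-bp hairpin. It had 214 and 213 in input and 68.9 and 34.7 in m6A-IP, a log2 ratio of -2.02 (standard error 0.31, limma adjusted p = 0.016). The *Wars2* structure had 774 and 706 in input and 275 and 187 in m6A-IP, and that of *Lars2* intron 1 had 103 and 109 against 44.1 and 34.7. Their log2 ratios were -1.68 and -1.33. In the m6A-IP library of reaction 12, 1 read had a value of 6.93. The 34.7 of *Gars* and of *Lars2* intron 1 in that library thus rests on few reads. The structure shared by the recurring windows of *Ears2*, *Hars*, *Iars*, *Kars* and *Sars2* had 331 and 383 in input and 263 and 236 in m6A-IP, with a log2 ratio of -0.51 (standard error 0.17, limma adjusted p = 0.070), and it was not called with the library totals or with a replicate block.

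The first 9 bases of the *Aars2* window are intronic, and its only stem uses them. The fold is thus that of the genomic window and not of spliced mRNA. The *Aars2* exon structure had 19632 and 19395 in input and 16201 and 13210 in m6A-IP, a log2 ratio of -0.42 (standard error 0.21, limma adjusted p = 0.177), which did not pass the threshold although both m6A-IP values were below both input values. It was depleted with library totals (-0.18, limma adjusted p = 0.0021) and without either m6A-IP library (-0.56 and -0.27), and not called under the other alternatives (limma adjusted p of 0.146 to 0.778). Taken in order of gene symbol, the intronic windows of *Aars* (-0.56), the third *Ears2* window (-0.72) and *Eprs* (-0.80) had depleted structures. Those of *Cars2* (-0.23), *Dars* (-0.25), the fourth *Ears2* window (-0.27) and the first *Fars2* window (-0.25), which has no predicted pairs, did not pass. The remaining depleted structures were those of *Iars2* (-0.77) and of an *Iars* window in intron 7 (-0.85).

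**Figure D5:**
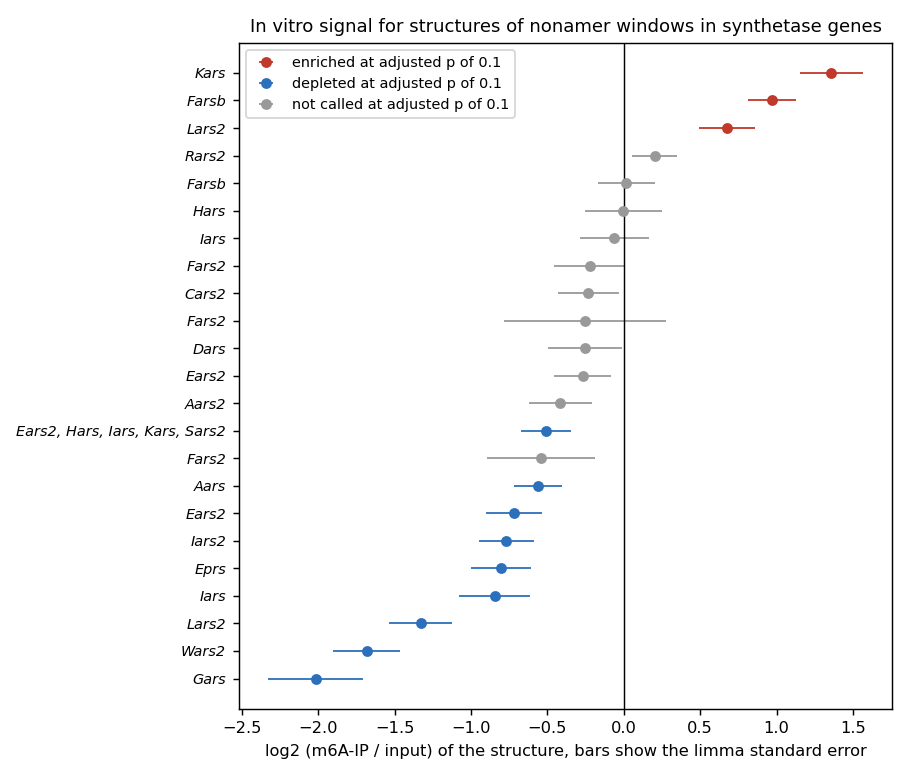
Log2 ratio of m6A-IP to input for the 23 structures into which nonamer windows of synthetase genes folded, labelled by gene, with bars for the limma standard error over 2 m6A-IP and 2 input libraries. Red marks the 3 enriched structures (0.68 to 1.36), blue the 9 depleted ones (-2.02 to -0.51) and gray those past neither side of the threshold.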

How the data were processed

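Poly(A) RNA of single embryos was sequenced by Smart-seq2. Per the labels and the methods, the authors quantified RefSeq (mm10) transcripts with Salmon 0.7.2, counted exons and introns with STAR and featureCounts, and normalized with DESeq2 1.18.1 in R 3.4.3. The deposited embryo tables hold a normalized signal, 1 mean count per feature over all embryos of a stage, beside the authors' own genotype comparisons (fold changes and p-values), which were not used. The deposited in vitro table holds, as signal, read counts per RNA structure divided by size factors by the authors, after adaptor removal with cutadapt 1.9.1. Depth there was estimated from the smallest step between values.

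Levels were divided by the length of the longest RefSeq transcript. Introns were trimmed by 10 bases at each end. Embryo values were not tested. Windows of 30 bases were read from GRCm38 and folded with RNAfold 2.7.2, and repeats were sought with BLAST 2.17.0. For the in vitro table, the moderated test of limma 3.58.1 (R 4.3.3) was applied (trend, log2 of value plus 5, two-sided, Benjamini-Hochberg over 36835 structures, threshold 0.1). The script was first tested on simulated data.

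Members, lists and tests were chosen with earlier results of these data known. All 36 genes were named, *Mars* and *Mars2* first, with the 3 highest and 3 lowest for introns and stages, and the exonic window and further windows by symbol, up to 10. The enriched and lowest windows printed as sequences were chosen by their in vitro values, after these were seen. Alternatives were other lengths, scalings, pseudocounts and filters, a replicate block and leaving out each library.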

Additional observations from a re-analysis of the deposited data

How the results depend on the processing

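The order of the compartments held with either transcript length, with summed exon counts and without *Gars* and *Kars* or *Lars2*, but its size depended on the counts. From summed exon counts the median level of the 36 genes at E2.5 was 1007 per kb in place of 376, and the ratio of cytosolic to mitochondrial medians was 13.8 at E2.5 and 8.87 at E3.5. With *Lars2* taken from the exons before its last one, a choice made after seeing the data, the ratios were 23.6 and 11.9. In vitro, scaling by library totals gave 6 enriched structures and moved the median over all structures from -0.27 to -0.055. Leaving out 1 library gave 0 to 7 enriched and 3 to 19 depleted structures. Dividing by the shortest transcript moved *Dars* to 5407 and 4399 per kb, *Wars* to 690 and 1069 and *Fars2* to 78.0 and 336. The log2 ratio changed sign and passed the threshold for 1 *Farsb* structure without m6A-IP library 11 (-0.16, and 0.19 without library 12), for a *Hars* structure with library totals (0.23) and without m6A-IP library 12 (0.20, and -0.20 without library 11), and for an *Iars* structure without m6A-IP library 12 (0.20, and -0.33 without library 11), and the cause was not tested. It also changed sign without passing the threshold for *Dars* (0.03 without m6A-IP library 12), *Fars2* (0.01 with library totals), the same *Iars* structure (0.16 with library totals and 0.02 without input 11) and the same *Farsb* structure (-0.01 without input 12). Over all 36835 structures, the enriched and depleted counts were 4621 and 10036, with 8299 and 9130 for library totals, 871 and 2104 or 855 and 1994 without input 11 or 12, and 8436 and 20642 or 11188 and 15155 without m6A-IP 11 or 12. With a replicate block by reaction number, 3 structures were enriched and 8 depleted, the recurring structure losing its call (limma adjusted p = 0.112). Per the methods, part of each reaction was kept as its input. Deviations of same-numbered libraries had a correlation of 0.0151, and 2 pairs cannot show whether the numbers pair them. The edgeR fit planned as an alternative was not run, because the deposited values did not all resolve to whole reads. Embryo means have no replicates here, and values were taken as kept within 1.5-fold. The m6A-IP library of reaction 12 had a median of 6 reads per structure and 843 structures at 0.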
